A study of Arabidopsis thaliana with 126 samples.

Results

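The genes described here encode proteins of the cytosolic ribosome of *Arabidopsis thaliana*. They are 47 loci, out of 33602 genes with deposited values, that were chosen by their locus identifiers, with earlier results of these data known. By family name, 17 belong to the small subunit, 26 to the large subunit and 4 are P proteins of the ribosomal stalk. They cover 25 of 80 families of cytosolic ribosomal proteins, a set that holds 232 loci in all, and 16 of these families are represented by at least 2 paralogs (duplicated genes for the same protein).

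The study asked how chromatin regulators act on the response to the gaseous hormone ethylene (ET), and RNA was sequenced from whole etiolated (dark-grown) seedlings that were 3 days old. In the Landsberg *erecta* (L*er*) background, the wild type, *ein6-1*, *een-1*, the double mutant *ein6-1 een-1* and *ein2-45* were kept in hydrocarbon-free air or treated with ET for 4 hr, which gives 10 groups. In the Columbia (Col-0) background, the wild type, *een-2*, *ino80-8* and *arp5-1* were sequenced in air only, which gives 4 groups. Every group has 2 libraries. No label says that the libraries of a group came from separate cultures, while the methods call such samples biological replicates. P-values rest on the spread between the 2 libraries of a group, pooled over all groups of a background. That spread may in part be technical. The *ein6-1* allele is a small deletion that puts an early stop into *REF6*, the gene of an H3K27me3 demethylase. The *een-1* allele is an inversion on chromosome 4 that fuses *EEN*, whose protein resembles a subunit (IES6) of the yeast INO80 chromatin remodeling complex, to another gene. Both arose in one fast neutron screen of L*er* seeds. The *ein2-45* allele is a point mutation in *EIN2*, a central component of ET signaling. The *een-2* and *ino80-8* alleles are insertion lines for *EEN* and for the ATPase gene *INO80*, and *arp5-1* is an allele of *ARP5*, the gene of another INO80 subunit.

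Most ribosomal proteins are needed in equal numbers for each ribosome, and plants encode nearly every ribosomal protein by several genes. In growing plant tissue these genes are among the most highly expressed and tend to change together, and their promoters often carry short shared elements, the telo box and site II. Loss of single paralogs is known in *Arabidopsis* to give small, pointed leaves or embryo arrest, from which some of the gene names come (*POINTED FIRST LEAF*, *EMBRYO DEFECTIVE*).

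Expression was deposited as TPM, a unit that corrects for transcript length and sums to the same total in each library. The nuclear rRNA share of the TPM ran from 2.80% to 16.1% in the L*er* background libraries, apart from *ein6-1* ET replicate 2 at 30.3%, and did not exceed 3.54% in the Col-0 background. Libraries were therefore rescaled within each background by the median ratio of their genes, and levels below are rescaled TPM. They are not comparable in size between the L*er* and Col-0 backgrounds. The rescaling by itself holds the median change of all genes near none in each comparison. That median, given below beside the members, is therefore not an independent background. The labelled genotypes were checked at their genes. *EEN* stood at 0.312 and 0.952 rescaled TPM in *een-2* against 49.9 and 39.3 in Col-0, and *INO80* at 3.36 and 2.80 in *ino80-8* against 18.9 and 20.8. In the double mutant in air *EIN2* stood at 8.22 and 7.66 against 54.4 and 57.2 in L*er*. *ARP5* stood at 4.42 and 4.38 in *arp5-1* against 5.47 and 5.46 in Col-0, a difference that did not pass (log2 fold change -0.26, adjusted p = 0.20), so transcript level does not check that label. *EEN* in *een-1* and *REF6* in *ein6-1* were not lower than in L*er* in air (log2 fold changes 0.17 and 0.69, neither passing). The dark-grown seedling markers *PORA*, *PORB* and *PHYA* were present in every library, with a summed level from 555 to 2702 rescaled TPM. Fewer cells of a type and less RNA per cell cannot be told apart in whole seedlings.

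All 47 ribosomal protein genes were expressed and tested in both backgrounds. In the L*er* background their mean level ran from 5.68 to 740.5 rescaled TPM with a median of 284 over genes. The highest, with a mean of 740.5, was *SAC52* (AT1G14320), one of 3 L10 genes. Its libraries ran from 506 in *ein6-1* in air to 1078 in *een-1* after ET. *EMB2296* (AT2G18020, L8 family), with a mean of 607, and *RPS6* (AT4G31700, S6 family), with 562, came next. S6 is the small subunit protein that the S6 kinases of the TOR growth pathway phosphorylate. The lowest were *RPL3B* (AT1G61580) at 17.3, the P0 gene AT2G40010 at 16.9 and *RPSAb* (AT3G04770) at 5.68 rescaled TPM. Each of these 3 is a minor paralog of a strongly expressed gene. *RPL3B* made up 3.06% and 3.30% of the L3 family's TPM in L*er* in air, beside *RP1* (AT1G43170), and *RPSAb* 1.05% and 1.28% of the SA family's, beside *P40* (AT1G72370).

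The members moved mostly as one block. When each gene was centred on its mean over the L*er* background libraries, the median over the 47 genes ran from -0.61 in *ein6-1* air replicate 1 to 0.57 in *een-1* ET replicate 2 on the log2 scale, and the genes scattered around that median by an SD of 0.10 to 0.20. In the Col-0 background the median ran from -0.52 in Col-0 replicate 2 to 0.99 in *arp5-1* replicate 1, with an SD of 0.09 to 0.26. The shift also separated replicates of one group, which differed by a median of -0.54 in *ein6-1* ET, -0.41 in *een-2* and -0.36 in *ein6-1* air (replicate 1 minus replicate 2). The ratio of the highest to the lowest group mean was 1.52 to 3.03 in the L*er* background (median 2.01) and 1.62 to 4.66 in the Col-0 background (median 2.73). The gene with the widest ratio in L*er* was AT5G60670 (L12 family), and in Col-0 it was AT1G70600 (L27a family). *een-1* after ET was the highest L*er* background group for 42 of 47 genes, and the lowest was *ein2-45* in air for 27 and *ein6-1* in air for 19. *arp5-1* was the highest Col-0 background group for all 47.

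**Figure D1:**
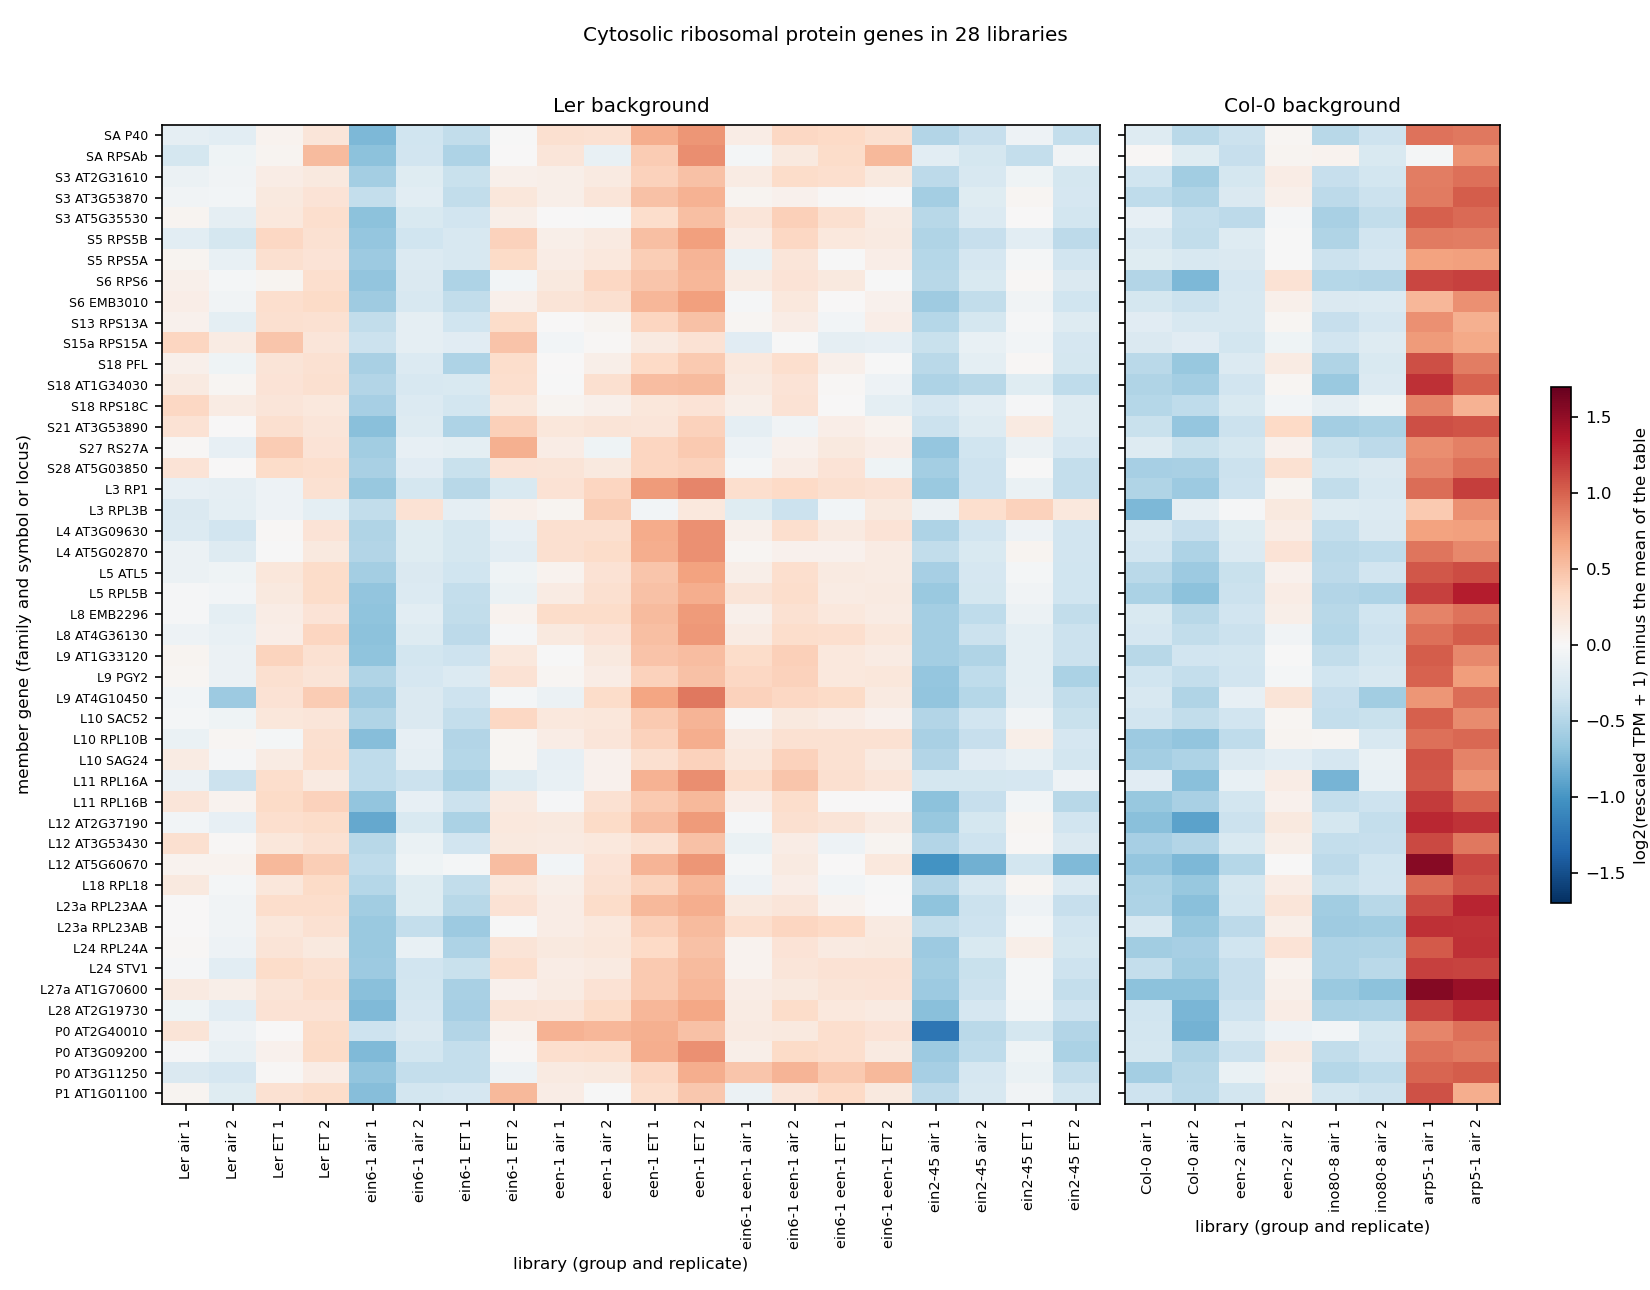
Each row is 1 of the 47 ribosomal protein genes, ordered by family, and each column 1 library, with the L*er* background on the left and the Col-0 background on the right. Color gives log2(rescaled TPM + 1) minus the gene's mean over the libraries of its background. Many columns are largely of one color from top to bottom, while others are mixed. In L*er* air replicate 1, 25 genes lie above their mean and 22 below. The 2 *arp5-1* libraries are the reddest, with medians of 0.99 and 0.94.

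After 4 hr of ET in L*er*, 46 of 47 genes had a positive log2 fold change, with a median of 0.27 (1.21-fold) and a range of -0.06 to 0.67, where the median of all tested genes was 0.02. In 38 genes both ET libraries lay above both air libraries, beside 31.5% of all genes. With limma, 4 of the 47 rose and none fell, beside 8.83% of all tested genes that were called higher, so the share called was near the background. The L9 gene AT4G10450 rose from 30.7 and 20.3 to 37.9 and 43.1 rescaled TPM (log2 fold change 0.67, standard error 0.19, adjusted p = 0.021). *RPS5B* (AT2G37270), one of a pair of S5 genes, rose from 169 and 155 to 243 and 228 (log2 fold change 0.54, adjusted p = 0.037). *RPL16A* (AT2G42740), a minor gene of the L11 family, which binds the 5S ribosomal RNA together with L5, rose from 18.8 and 15.4 to 25.1 and 22.4 (log2 fold change 0.46, adjusted p = 0.025). The L4 gene AT3G09630, whose protein reaches into the tunnel through which the new chain leaves, rose from 198 and 184 to 235 and 272 (log2 fold change 0.40, adjusted p = 0.038). In each of these 4 genes the air and ET libraries do not overlap. The lowest value belonged to *RPS18C* (AT4G09800), with 296 and 254 in air and 267 and 261 after ET. With TPM as deposited, 35 genes were called, and there the median of the members was 0.54 and that of all genes 0.25. The count fell to 2 without L*er* air replicate 1, 0 without L*er* air replicate 2, 2 without L*er* ET replicate 1 and 1 without L*er* ET replicate 2, and rose to 6 when either *ein6-1* ET library was left out.

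In *een-1*, ET gave a median log2 fold change of 0.36 over the members (all genes 0.01), and both ET libraries lay above both air libraries in 44 of 47 genes, beside 30.8% of all genes. Of the 47, 5 rose and none fell, beside 4.84% of all genes called higher. *RPL16A* rose from 18.4 and 21.2 to 30.8 and 35.5 rescaled TPM (log2 fold change 0.72, standard error 0.14, adjusted p = 0.0020). The other 4 were AT4G10450 (29.6 and 39.5 to 50.9 and 59.7), AT5G60670 (94.8 and 116 to 148 and 166), and both L4 genes, AT3G09630 (279 and 280 to 360 and 399) and AT5G02870 (294 and 303 to 375 and 419), with log2 fold changes of 0.67, 0.57, 0.44 and 0.41 and adjusted p from 0.028 to 0.048. Without *een-1* air replicate 1, *een-1* ET replicate 1 or *een-1* ET replicate 2 the count was 1, and without *een-1* air replicate 2 it was 2. It was 11 without *ein6-1* ET replicate 1, 13 without *ein6-1* ET replicate 2, and 3 without either library of L*er* air, *ein6-1 een-1* air or *ein6-1 een-1* ET.

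In *ein6-1*, all 47 log2 fold changes were positive (median 0.28, all genes 0.03), but the ET libraries differed from each other, so that both lay above both air libraries in 5 genes only, beside 25% of all genes. *RPS5B* alone rose, from 121 and 151 to 158 and 251 rescaled TPM (log2 fold change 0.56, standard error 0.17, adjusted p = 0.039), beside 7.02% of all genes called higher. *ein6-1* ET replicate 2 is the library with the highest rRNA share, and the part of that share in the result was not tested. With it left out, no gene was called, and without *ein6-1* ET replicate 1, 29 were. The count was 4 without *ein6-1* air replicate 2, and 0 without *ein6-1* air replicate 1 or without either library of L*er* air, *een-1* air or *ein6-1 een-1* ET.

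No member was called after ET in *ein2-45* or *ein6-1 een-1*. In *ein2-45* all 47 log2 fold changes were positive, with a median of 0.24, and both ET libraries lay above both air libraries in 17 genes, beside 17.1% of all genes. limma called 0 of 20546 genes there (0%), and an unadjusted p below 0.05 was found in 0 members and 3.03% of all genes. In *ein6-1 een-1* the median was -0.03, with both ET libraries above both air libraries in 9 genes and below in 12, beside 20.4% and 19.5% of all genes. limma called 0 members, beside 0.443% of all genes higher and 0.17% lower, and an unadjusted p below 0.05 was found in 0 members and 8.06% of all genes. The difference in ET response from L*er* was tested directly. It had a median of 0.02 over the members for *ein6-1*, 0.09 for *een-1*, -0.05 for *ein2-45* and -0.29 for *ein6-1 een-1*, and limma called 0 members in each. Of all genes, 2.44% were called lower and 6.64% higher for *ein6-1 een-1*, 0.00487% and 0.00973% for *ein6-1*, 0% for *een-1*, and 2.89% and 6.47% for *ein2-45*. In *ein6-1 een-1*, 44 of 47 differences were negative, and 5 members (10.6%) had an unadjusted p below 0.05, beside 22.5% of all genes. The number of members with an unadjusted p below 0.05 was 1 for *ein6-1*, 0 for *een-1* and 0 for *ein2-45*, beside 10.5%, 6.19% and 23.3% of all genes. For *ein6-1 een-1* the count of calls was 1 without L*er* air replicate 1, 2 without *ein6-1* ET replicate 1 and 3 without *ein6-1* ET replicate 2.

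**Figure D2:**
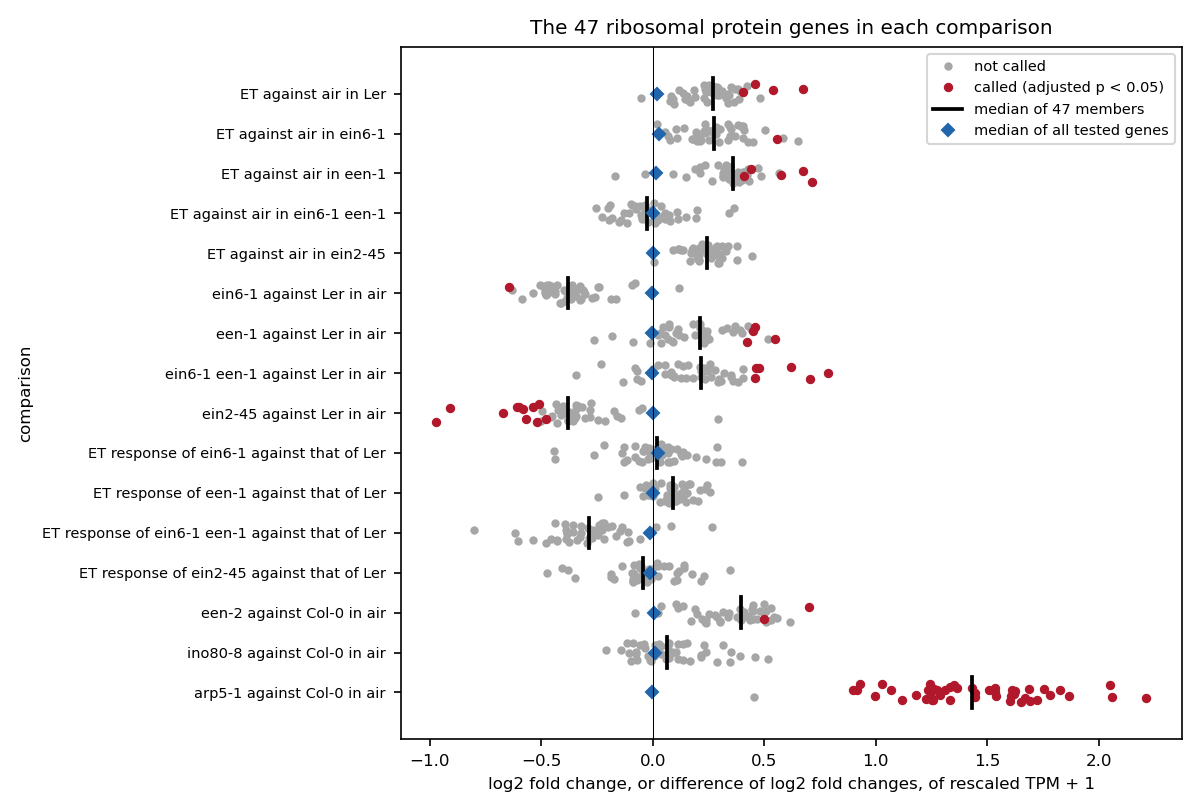
Each point is 1 of the 47 genes, placed by its log2 fold change (or difference of log2 fold changes) of rescaled TPM + 1, with 1 row per comparison. Red points passed an adjusted p of 0.05 in limma, the black bar is the median of the members and the blue diamond that of all tested genes. The members lie near 0.27 after ET in L*er*, near -0.38 in *ein6-1* and *ein2-45* in air, and near 1.43 in *arp5-1*.

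Among the L*er* background mutants in air, *ein2-45* had the lowest members. The median log2 fold change against L*er* was -0.38 (0.77-fold, range -0.97 to 0.29), and both *ein2-45* libraries lay below both L*er* libraries in 42 of 47 genes, beside 32.5% of all genes. Of the 47, 11 fell and none rose, beside 11.6% of all genes called lower. AT5G60670, an L12 gene of the stalk base, had 102 and 102 rescaled TPM in L*er* and 48.3 and 55.4 in *ein2-45* (log2 fold change -0.97, standard error 0.18, adjusted p = 0.0014). The P0 gene AT2G40010, for the protein that anchors the P1 and P2 proteins in the stalk, had 18.8 and 15.0 against 6.26 and 11.4 (log2 fold change -0.91, adjusted p = 0.0066). *RPL16B* (AT4G18730), the major L11 member here, had 285 and 257 against 153 and 188 (log2 fold change -0.67, adjusted p = 0.022). AT1G70600 had 578 and 556 against 340 and 405, the S18 gene AT1G34030 198 and 182 against 123 and 128, and the S28 gene AT5G03850 327 and 278 against 186 and 218, with log2 fold changes of -0.61, -0.60 and -0.58. The remaining 5 that fell were AT3G53430, *EMB3010*, AT1G33120, *PGY2* and *RPS18C* (log2 fold change -0.57 to -0.48). The one positive value was that of *RPL3B*, with 14.2 and 15.1 in L*er* and 15.8 and 20.9 in *ein2-45* (log2 fold change 0.29, adjusted p = 0.32). With TPM as deposited, 2 members were called, with a median of -0.18 against 0.18 for all genes. The count was 1 without L*er* air replicate 1, 6 without L*er* air replicate 2, 1 without *ein2-45* air replicate 1 and 21 without either *ein6-1* ET library.

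In *ein6-1* in air the median was likewise -0.38, and both libraries lay below both L*er* libraries in 41 of 47 genes, beside 27.1% of all genes. One gene, *RPS18C*, fell, from 296 and 254 to 156 and 195 rescaled TPM (log2 fold change -0.65, standard error 0.15, adjusted p = 0.017), beside 4.14% of all genes called lower. The unadjusted p was below 0.05 in 22 of the 47 (46.8%), beside 21.4% of all genes. The *ein6-1* replicates differed by a shift shared by the genes, and the count was 5 without *ein6-1* air replicate 2, 8 without either *ein6-1* ET library, 2 without either *ein2-45* ET library, and 0 without L*er* air replicate 1 or *ein6-1* air replicate 1.

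In *een-1* and *ein6-1 een-1* in air the members tended to be higher than in L*er*, with medians of 0.21 and 0.22, and 4 and 6 of them rose, beside 10.6% and 17.4% of all genes called higher. In both mutants these included *RP1*, the main gene of L3, which lies by the catalytic centre (449 and 444 rescaled TPM in L*er*, 589 and 639 in *een-1*, 602 and 624 in *ein6-1 een-1*), the L4 gene AT3G09630 (198 and 184, 279 and 280, 246 and 283) and the P0 gene AT3G11250 (40.7 and 39.3, 53.8 and 54.1, 67.1 and 72.6). The log2 fold change of AT3G11250 was 0.42 in *een-1* (adjusted p = 0.041) and 0.79 in *ein6-1 een-1* (adjusted p = 5.8e-04). AT5G02870 also rose in *een-1* (227 and 209 to 294 and 303). AT4G10450 (30.7 and 20.3 to 41.9 and 40.7), *RPL16A* (18.8 and 15.4 to 25.1 and 28.2) and *RPS5B* (169 and 155 to 209 and 243) also rose in *ein6-1 een-1*. *RPS15A* (AT1G07770) was at the other end in both, with 433 and 370 in L*er*, 326 and 341 in *een-1* and 295 and 337 in *ein6-1 een-1*, and was not called. With TPM as deposited, 39 and 35 members were called, and the medians were 0.59 and 0.59 beside 0.32 and 0.33 for all genes. In *een-1* the count was 2 without L*er* air replicate 1, 0 without L*er* air replicate 2, 1 without *een-1* air replicate 1, 0 without *een-1* air replicate 2, and 2 without either *ein6-1 een-1* air library or *ein6-1 een-1* ET replicate 2. In *ein6-1 een-1* it was 2 without L*er* air replicate 2, 3 without either *ein6-1 een-1* air library and 11 without either *ein6-1* ET library. All these comparisons use the same 2 L*er* air libraries.

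Other markers differed in these mutants as well. The summed level of 6 dividing cell genes was 120.4 and 119.7 rescaled TPM in L*er* in air, 156 and 170.3 in *een-1*, 125 and 133 in *ein6-1 een-1*, 149 and 156 in *ein2-45*, and 100.4 and 118 in *ein6-1*. Of the 6, 4 rose in *een-1* (*CYCB1;1*, a mitotic cyclin, by 1.07 on the log2 scale, adjusted p = 0.0035, with *CDKB2;1*, *SYP111* and *CDKB1;1*). In *ein2-45* 2 rose (*CDKB2;1* and *SYP111*) and 1, *PCNA2*, fell, and none was called in *ein6-1* or *ein6-1 een-1*. The chlorophyll synthesis genes *PORA* and *PORB*, which mark dark-grown seedlings, rose in *een-1* (log2 fold changes 0.86 and 0.67) and in *ein2-45* (0.97 and 0.86), and fell in *ein6-1 een-1* (-0.79 and -1.46). In *ein6-1* both were higher than in L*er* but not called. There *PORA* stood at 572 and 743 against 363 and 400 in L*er*, and *PORB* at 717 and 847 against 490 and 537. After ET in L*er* they rose too (0.70 and 0.73) while *PHYA* fell, and no dividing cell gene was called. The part of these markers in the ribosomal protein levels was not tested.

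In the Col-0 background, 46 of 47 ribosomal protein genes rose in *arp5-1* and none fell, beside 25.8% of all genes called higher and 51.2% called in either direction. The log2 fold changes ran from 0.45 to 2.21 with a median of 1.43 (2.70-fold), where the median of all genes was -0.0025. In 46 genes both *arp5-1* libraries lay above both Col-0 libraries, beside 37.9% of all genes. The library labels of Col-0, *een-2* and *ino80-8* carry serial numbers that those of *arp5-1* lack. Whether *arp5-1* was prepared apart from them is not known, so genotype and preparation cannot be told apart. The gene with the largest change was AT1G70600 (L27a family), with 229 and 230 rescaled TPM in Col-0, 285 and 395 in *een-2*, 240 and 229 in *ino80-8*, and 1105 and 1033 in *arp5-1* (log2 fold change 2.21, standard error 0.16, adjusted p = 1.5e-05). It was followed by the L12 genes AT2G37190 (152 and 133 in Col-0, 609 and 584 in *arp5-1*, log2 fold change 2.06) and AT5G60670 (58.2 and 53.8, 271 and 204, log2 fold change 2.05). Then came *RPL5B* (AT5G39740), whose product carries 5S RNA into the large subunit (222 and 198, 722 and 814, log2 fold change 1.87), *RPL23AA* (AT2G39460), a protein at the exit of the tunnel (299 and 262, 939 and 1053, log2 fold change 1.83), and *RPS6* (288 and 238, 898 and 910, log2 fold change 1.78). For these 6 the adjusted p was between 1.5e-05 and 7.4e-05. The smallest called changes belonged to the small subunit genes *RPS15A* (275 and 286, 539 and 507, log2 fold change 0.90), *RPS13A* (288 and 272, 563 and 498, log2 fold change 0.92), *RPS5A* (280 and 265, 516 and 523, log2 fold change 0.93) and *EMB3010* (AT5G10360, 266 and 253, 480 and 557, log2 fold change 0.99). *RPSAb* was not called: its values were 4.35 and 3.60 in Col-0 and 4.15 and 7.97 in *arp5-1*, so the groups overlap (log2 fold change 0.45, standard error 0.28, adjusted p = 0.21). The count was 46 or 47 whichever library was left out.

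By subunit, the median log2 fold change in *arp5-1* was 1.25 over the 17 small subunit members, 1.60 over the 26 large subunit members and 1.38 over the 4 P proteins. Over the cytosolic ribosomal protein genes outside the 47 it was 1.38, 1.61 and 1.45, with 67 of 70, 88 of 91 and 7 of 8 called higher. In all, 162 of these 169 tested genes rose, and 1, *RPL18AA* (AT1G29970), fell (log2 fold change -1.05).

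**Figure D3:**
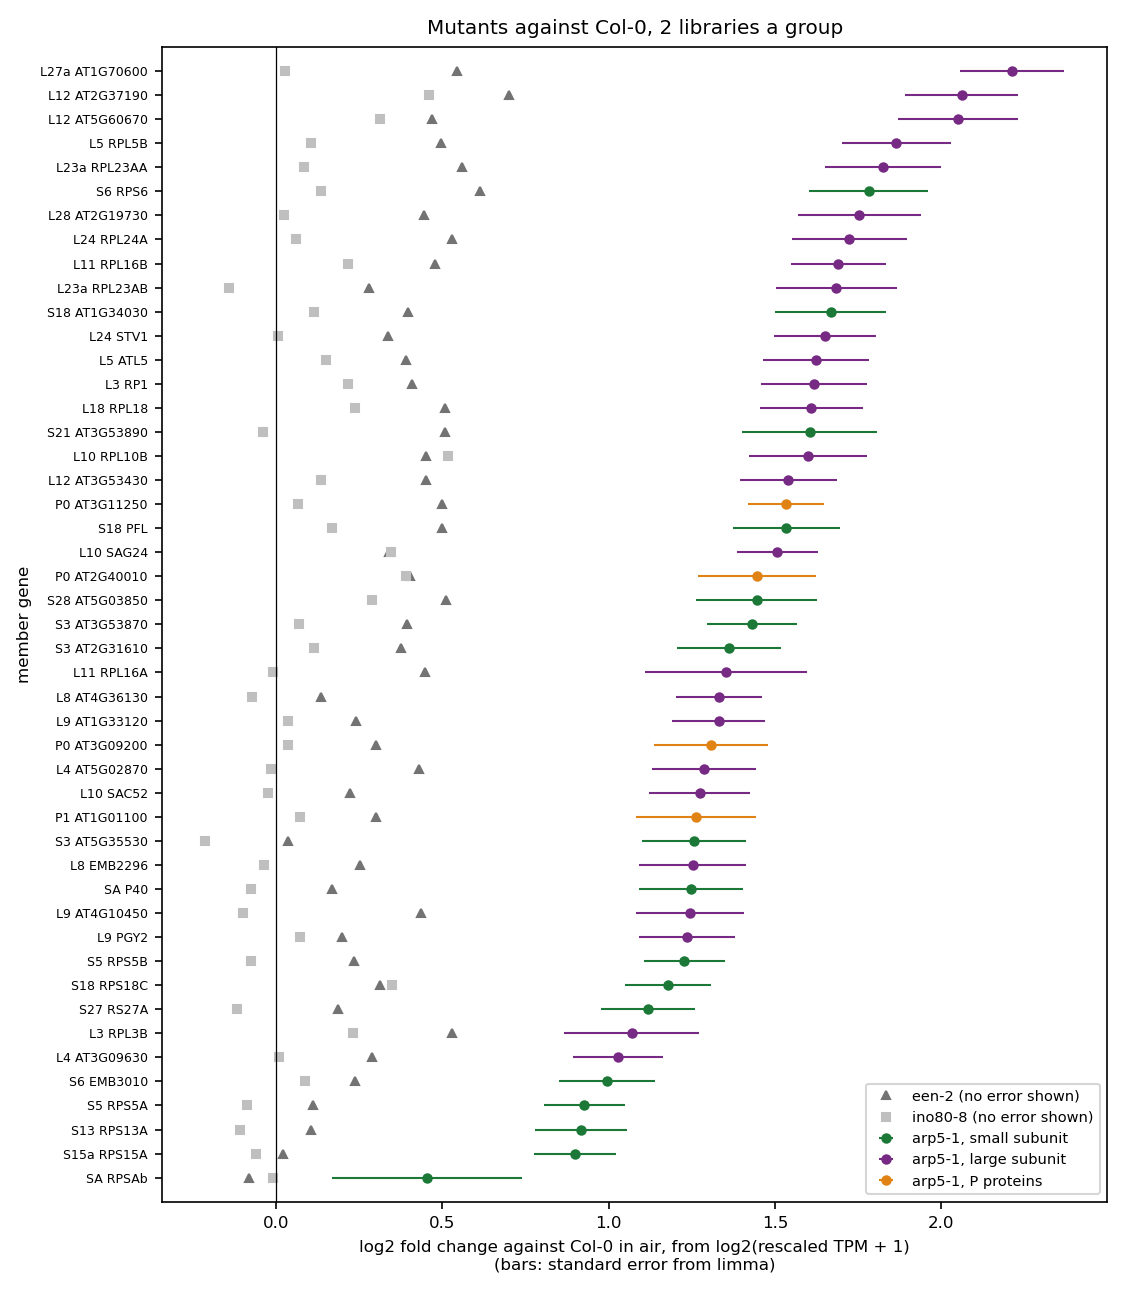
The 47 genes are ordered by their log2 fold change in *arp5-1* against Col-0 in air (circles, colored by subunit, with the standard error from limma), and triangles and squares give *een-2* and *ino80-8* against the same 2 Col-0 libraries. The circles run from 0.45 (*RPSAb*) to 2.21 (AT1G70600), and the squares lie around a median of 0.06.

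In *een-2* the median was 0.39 over the members (all genes 0.01), with 46 positive values and both libraries above both Col-0 libraries in 34 genes, beside 28.6% of all genes. limma called 2 of them higher, beside 3.78% of all genes: AT2G37190 (152 and 133 in Col-0, 192 and 279 in *een-2*, log2 fold change 0.70, adjusted p = 0.037) and AT3G11250 (25.7 and 27.7, 35.6 and 40.7, log2 fold change 0.50, adjusted p = 0.030). The *een-2* replicates differed by a shift common to the genes. The count was 18 without *een-2* replicate 1, and 0 without *een-2* replicate 2, either Col-0 library or either *ino80-8* library. In *ino80-8* the median was 0.06, with 16 genes above and 4 below Col-0 in both libraries, beside 25.8% and 24.5% of all genes. limma called 0 members, beside 1.41% of all genes higher and 1.52% lower, and 4 had an unadjusted p below 0.05 (8.51%), beside 17.8% of all genes. *arp5-1* was also compared directly with these mutants, a contrast added after the data had been seen. Against *een-2*, 45 members were higher (median 1.05, beside 15% of all genes), and against *ino80-8*, 46 were (median 1.34, beside 22.7%). The 3 mutants share their Col-0 libraries, and these direct contrasts share the *arp5-1* libraries.

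The *arp5-1* seedlings also differed from Col-0 in markers of other states. The summed level of 6 dividing cell genes was 117 and 87.1 rescaled TPM in Col-0, between 100.2 and 148 in *een-2* and *ino80-8*, and 212 and 230 in *arp5-1*. Of these genes, *PCNA2* (21.02 and 16.99 to 66.9 and 62.7), *PCNA1*, *CDKB1;1*, *CYCB1;1* and *SYP111* rose, and *CDKB2;1* stood at 39.46 and 27.95 in Col-0 and 29.5 and 36.6 in *arp5-1*. The summed level of 3 seed storage protein genes was 27.9 and 22.8 in Col-0 and 3321 and 3270 in *arp5-1*, and all 3 rose. It was also raised in *een-2* (774 and 493) and *ino80-8* (727 and 784). In the L*er* background, seed protein genes were highest in *ein6-1 een-1* in air (9351 and 10441, L*er* 1855 and 1721) and lowest in *ein6-1* in air (43.3 and 35.2). They stood at 156 and 238 in *ein2-45* in air and at 1304 and 2877 in *een-1* in air. The part of dividing cells and of seed-stage RNA in the ribosomal protein levels was not tested.

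**Figure D4:**
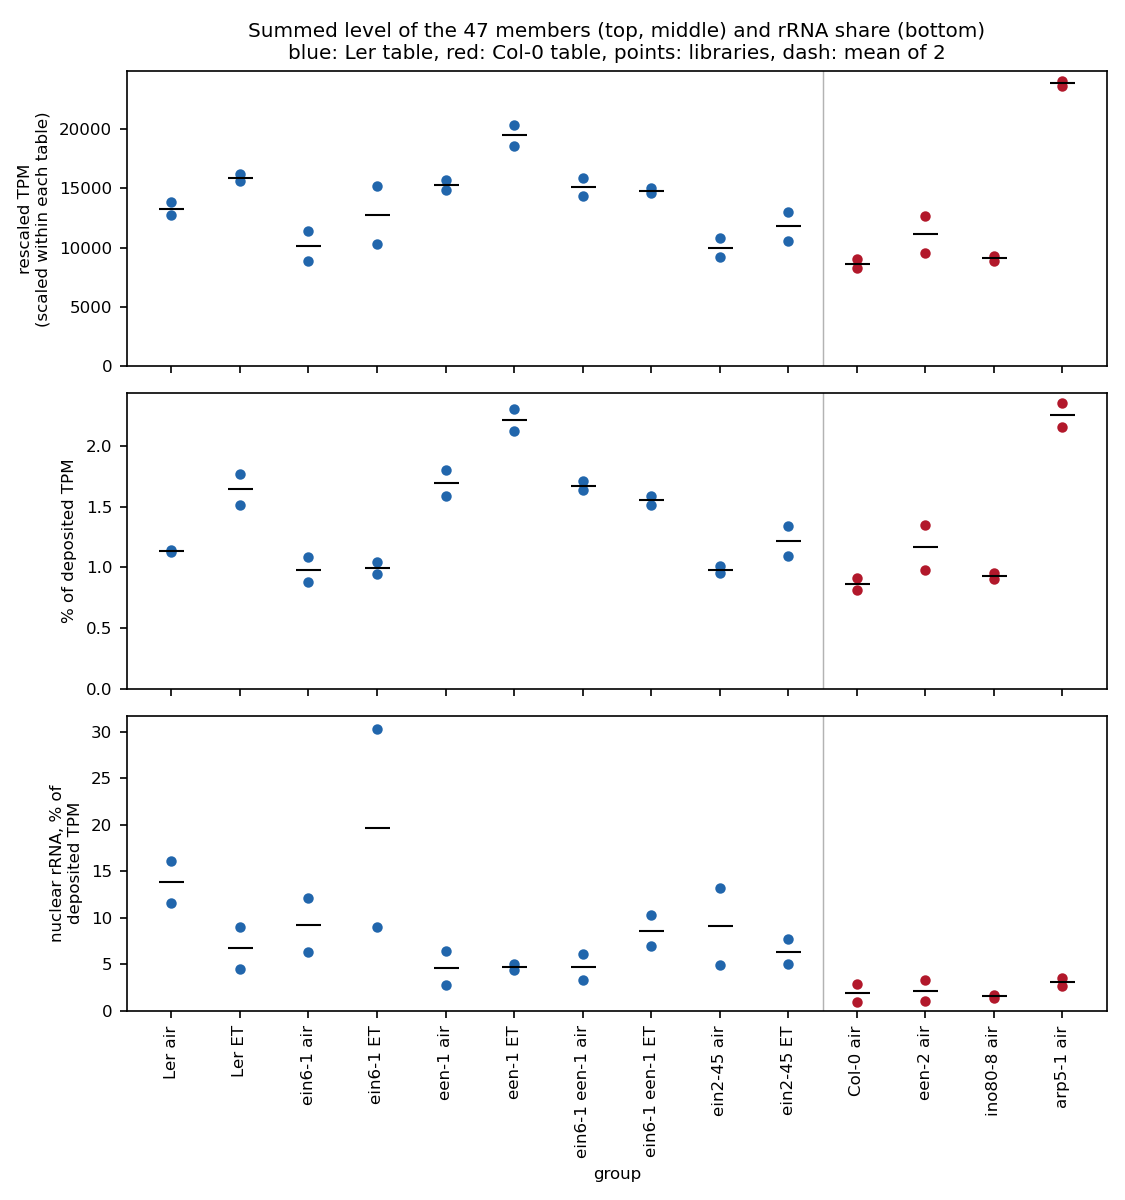
The top panel gives the summed level of the 47 genes in rescaled TPM for each library (points) and group mean of 2 libraries (dash), the middle panel the same genes as a percent of deposited TPM, and the bottom panel the nuclear rRNA share. *arp5-1* libraries stand at 24068 and 23631 in the top panel and the other Col-0 background libraries between 8301 and 12692.

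Summed over the 47 genes, the level was 13300.5 ± 790.0 rescaled TPM in L*er* in air and 15902 ± 440 after ET (SD, n = 2). It was 19476 ± 1254 in *een-1* after ET, the highest L*er* background group, and 9999 ± 1099 in *ein2-45* in air, the lowest. In the Col-0 background it was 8666 ± 516 in Col-0, 11131 ± 2208 in *een-2*, 9096 ± 312 in *ino80-8* and 23850 ± 309 in *arp5-1*. As a share of deposited TPM, the members took 0.909% and 0.815% in Col-0 and 2.16% and 2.36% in *arp5-1*.

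Other genes of ribosome production were followed as fixed lists, and each count is to be read against the share of all genes called in the same direction. After ET in L*er* (8.83% of all genes higher), 22 of 33 ribosome assembly genes rose (median log2 fold change 0.51), led by *RID2*, which encodes a methyltransferase-like protein (0.79). There 5 of 30 plastid ribosomal protein genes rose (led by *PRPL11*, 0.89), while 5 of the 172 other cytosolic ribosomal protein genes did. Of the 33 assembly genes, 6 rose after ET in *ein6-1* (median 0.23, all genes 7.02%). After ET in *ein6-1 een-1* (median 0.06, all genes 0.443%) and in *ein2-45* (median 0.11, all genes 0%), 0 of 33 did. Ribosome assembly genes rose in number in *een-1* after ET (20 of 33, all genes 4.84%), in *een-1* in air (20 of 33, all genes 10.6%, led by the nucleolin gene *NUC-L1* at 0.93) and in *ein6-1 een-1* in air (28 of 33, all genes 17.4%, led by *PRH75* at 1.45, while the nucleolin gene *NUC-L2* (AT3G18610) fell, at -0.91). In *ein2-45* in air, where 30 of 172 other cytosolic ribosomal protein genes fell, 1 of 33 assembly genes (*DIM1A*) fell, beside 11.6% of all genes. In the same mutant 12 of 30 plastid ribosomal protein genes rose, led by *RPL12-A* (1.60), beside 11.5% of all genes. In *ein6-1 een-1* in air 10 of 30 plastid genes fell, beside 19.9% of all genes. In *arp5-1*, where 25.8% of all genes were higher and 25.4% lower, 21 of 33 assembly genes rose, led by the fibrillarin gene *FIB2* (2.21), and 2 of 30 plastid genes rose and 1 fell. The large subunit gene of RNA polymerase I, *NRPA1*, rose (1.32). Of 17 translation factors, 8 rose, led by *EIF4E*, the cap-binding factor (1.36), and 1, *ELF5A-1*, fell (-0.90). Of 6 genes of the TOR pathway, *TOR* (-0.52) and its partner *RAPTOR1* (-0.60) fell, and AT3G51800 rose (1.22).

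Promoters of 6 members are printed to show the elements they carry: those of the pair with the largest changes in *arp5-1* (AT1G70600 and AT2G37190), of AT3G53430, the L12 paralog of the latter that rose less (log2 fold change 1.54), of the S6 pair, and of *RPSAb*, which changed least. Each runs from 250 bases before to 50 after the annotated gene start, from RefSeq for TAIR10.1, and is given 5′ to 3′ on the gene's strand, which is the minus strand in all 6. Capitals mark the telo box (AAACCCTA) and site II (TGGGCC or TGGGCT) on either strand, and where 2 matches overlap the capitals run together. AT1G70600 (chr1:26621730-26622029), the gene with the largest change, has 2 site II matches and no telo box. AT2G37190 (chr2:15620107-15620406) and AT3G53430 (chr3:19810471-19810770), both L12 genes, each have 1 telo box and 2 site II matches. *RPS6* (chr4:15347755-15348054) has 2 site II matches and no telo box, and *EMB3010* (chr5:3260205-3260504) has 3 site II matches and 1 telo box. *RPSAb* (chr3:1311080-1311379), the gene not called, has neither. The other members with neither element, whose promoters are not printed, were all called higher, among them *RPL23AA* (log2 fold change 1.83).
AT1G70600: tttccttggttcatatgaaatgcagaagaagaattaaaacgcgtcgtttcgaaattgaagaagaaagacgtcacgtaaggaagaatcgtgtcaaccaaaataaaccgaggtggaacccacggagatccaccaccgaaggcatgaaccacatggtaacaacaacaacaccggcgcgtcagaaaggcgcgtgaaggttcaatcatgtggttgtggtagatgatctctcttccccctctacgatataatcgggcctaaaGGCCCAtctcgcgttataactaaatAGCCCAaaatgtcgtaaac
AT2G37190: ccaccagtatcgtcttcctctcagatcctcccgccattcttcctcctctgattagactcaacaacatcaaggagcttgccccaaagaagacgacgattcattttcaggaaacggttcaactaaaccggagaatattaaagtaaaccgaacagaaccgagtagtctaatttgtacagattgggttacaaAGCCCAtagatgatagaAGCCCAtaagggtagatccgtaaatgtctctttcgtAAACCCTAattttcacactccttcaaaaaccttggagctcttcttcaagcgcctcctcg
AT3G53430: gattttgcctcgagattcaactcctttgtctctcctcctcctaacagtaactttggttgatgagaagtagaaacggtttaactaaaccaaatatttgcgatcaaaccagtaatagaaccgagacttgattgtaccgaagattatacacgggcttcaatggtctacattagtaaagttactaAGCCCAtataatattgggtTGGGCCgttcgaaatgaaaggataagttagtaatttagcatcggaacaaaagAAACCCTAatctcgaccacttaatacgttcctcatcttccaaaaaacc
RPS6: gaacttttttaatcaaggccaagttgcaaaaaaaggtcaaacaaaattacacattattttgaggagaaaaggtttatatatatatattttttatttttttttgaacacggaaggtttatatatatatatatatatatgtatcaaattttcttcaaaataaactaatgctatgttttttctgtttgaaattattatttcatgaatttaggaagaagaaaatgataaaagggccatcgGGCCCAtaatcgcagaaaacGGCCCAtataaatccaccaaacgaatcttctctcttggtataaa
EMB3010: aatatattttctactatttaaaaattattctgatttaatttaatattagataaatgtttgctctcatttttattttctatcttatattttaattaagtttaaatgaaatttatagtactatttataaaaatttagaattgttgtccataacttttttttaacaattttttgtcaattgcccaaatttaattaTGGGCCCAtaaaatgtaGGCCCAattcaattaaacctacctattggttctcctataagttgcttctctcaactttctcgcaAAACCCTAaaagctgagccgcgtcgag
RPSAb: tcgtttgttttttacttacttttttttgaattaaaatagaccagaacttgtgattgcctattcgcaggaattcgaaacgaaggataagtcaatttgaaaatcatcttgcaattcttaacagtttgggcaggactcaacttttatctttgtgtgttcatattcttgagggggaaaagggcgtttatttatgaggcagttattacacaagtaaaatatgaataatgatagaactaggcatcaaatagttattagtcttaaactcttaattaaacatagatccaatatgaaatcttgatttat

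Matches of this kind were common among the members. The telo box was found in 23 of 47 promoters (48.9%), in 50.3% of the 185 other cytosolic ribosomal protein genes and in 6.22% of 27443 promoters of the same length. Site II was found in 33 of 47 (70.2%), 78.4% and 21.7%. Both were found in 15 of 47 (31.9%), 44.3% and 2.20%, and neither in 6 members. In *arp5-1* the median log2 fold change was 1.51 over the 23 members with a telo box and 1.35 over the 24 without, 1.43 over the 33 with site II and 1.35 over the 14 without, and 1.17 over the 6 with neither, with ranges that overlap. A match describes these letters only and does not show a site in use.

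Within families, the paralogs kept their order in most groups, while their shares of the family's summed TPM moved. In the 16 families with at least 2 of the 47 genes, the share that moved most did so by 0.52 to 13.3 percentage points between the group means furthest apart. A share is a ratio within a library and does not depend on the scaling. Among these 16 families the widest difference was in the S6 pair. *EMB3010* made up 48.0% and 51.5% of S6 TPM in Col-0, 44.8% and 41.6% in *een-2*, 48.6% and 49.1% in *ino80-8*, and 34.84% and 37.98% in *arp5-1*, where both libraries lie below all others of the Col-0 background. *RPS6* took the rest. In the S18 family *RPS18C* held 42.1% and 45.4% in Col-0, 36.9% and 36.6% in *arp5-1* and 49.3% and 45.2% in *ino80-8*. In the L12 family AT3G53430 had 47.6% and 51.8% in Col-0 and 41.3% and 40.1% in *arp5-1*. These genes rose less in *arp5-1* than the rest of their family, and no test of the shares was made. A pair of families with only 1 of the 47 genes moved further, and they were picked after their values were seen. *RPS15A* held 60.5% and 63.4% of S15a TPM in Col-0, 54.02% and 51.1% in *een-2*, 54.8% and 57.5% in *ino80-8* and 46.4% and 44.6% in *arp5-1*, a difference of 16.5 points between the Col-0 and *arp5-1* means. In the L*er* background it ran from 44.2% and 47.2% in *ein6-1 een-1* after ET to 58.01% and 59.6% in *ein6-1* after ET. AT3G53890 (S21 family) held 45.4% and 39.2% in Col-0, 42.4% and 41.7% in *ino80-8* and 58.7% and 55.9% in *arp5-1*, which is 15.3 points above the *ino80-8* mean.

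In the L*er* background the widest differences among the 8 families were in L12 and S18. AT3G53430 made up 48.6% and 45.4% of L12 TPM in L*er* in air and 38.96% and 39.6% in *een-1* after ET, and *RPS18C* 42.3% and 40.9% against 34.4% and 34.2% of S18 TPM in the same groups. In S5, *RPS5A* made up 67.6% and 66.8% in L*er* in air, 63.0% and 63.6% after ET, and 60.0% and 61.8% in *ein6-1 een-1* in air. AT5G60670 held 10.9%, 10.6%, 11.7% and 10.8% of L12 TPM in the 4 *ein2-45* libraries, in air and after ET, and 12.7% to 18.2% in the other libraries of that background. The share of *RPL23AA* in L23a ran from 65.7% and 67.6% in *ein6-1 een-1* after ET to 72.0% and 73.4% in *ein6-1* after ET. AT3G53870 in S3 ran from 37.5% and 39.4% in *ein6-1 een-1* after ET to 45.8% and 42.7% in *ein6-1* in air. In the Col-0 background *SAC52* in L10 ran from 67.5% and 66.0% in *ino80-8* to 73.4% and 71.4% in Col-0, and AT3G09630 in L4 from 48.7% and 50.5% in *arp5-1* to 53.5% and 55.7% in *ino80-8*. In all 8 families the libraries of the highest and lowest group do not overlap, which the choice of the most distant groups favors.

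**Figure D5:**
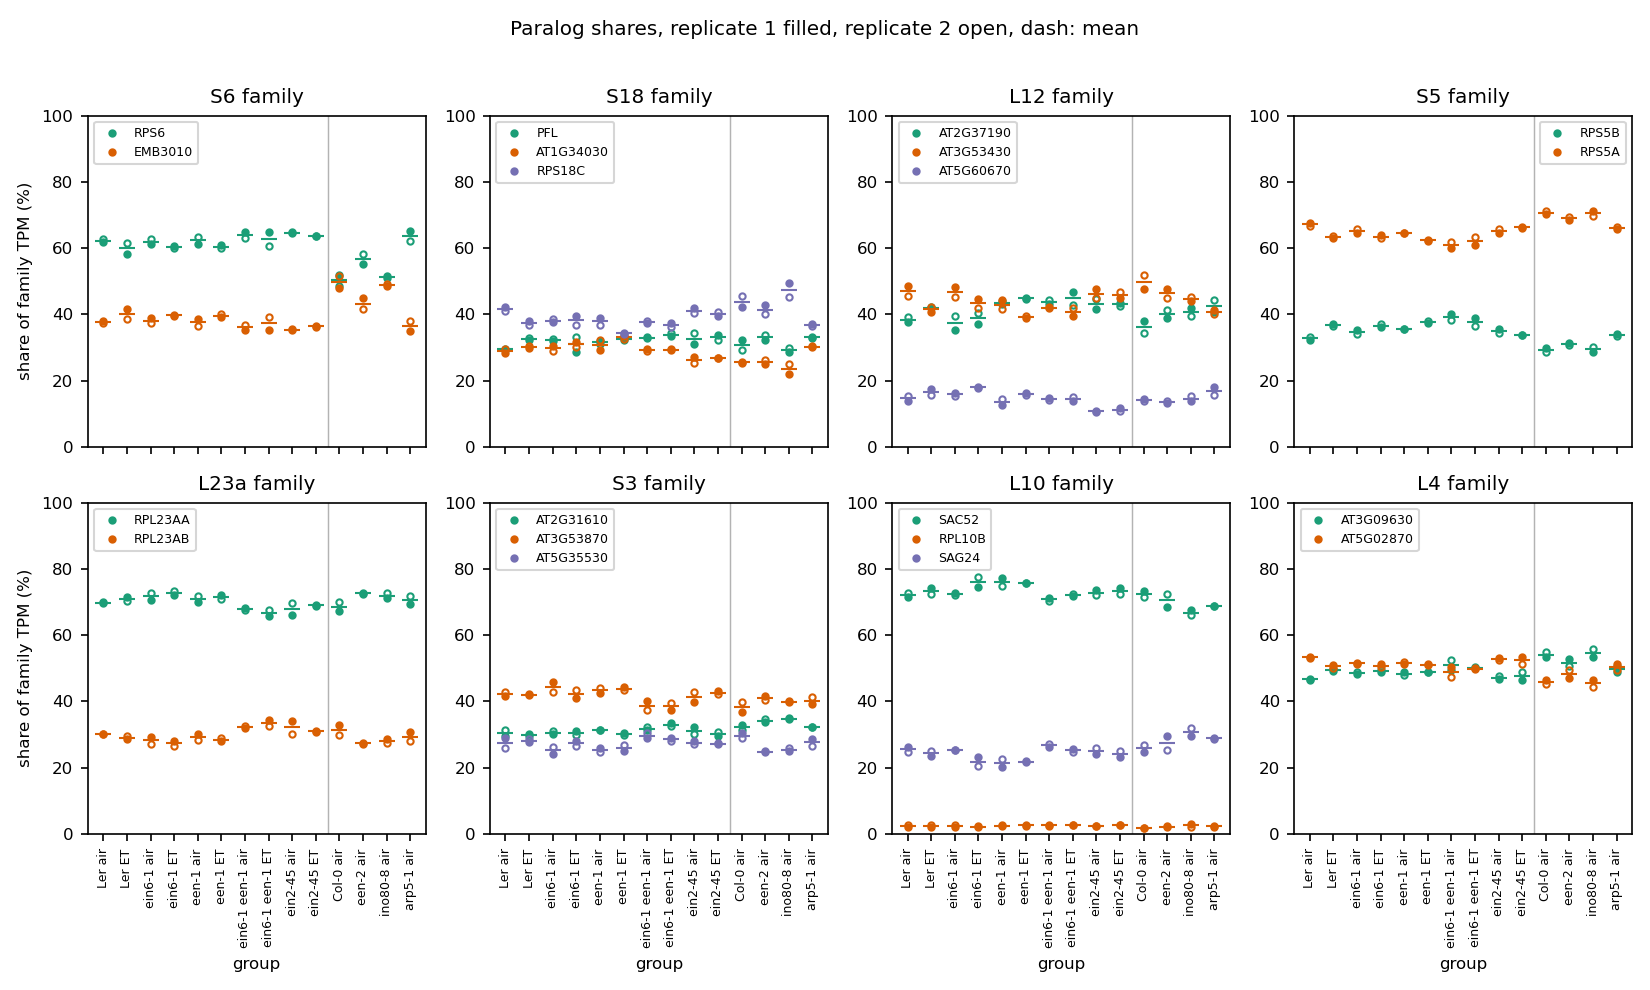
Each panel is 1 of the 8 families with the widest share differences among the 16 that hold at least 2 of the 47 genes, and each point is a gene's share of the family's TPM in 1 library (filled, replicate 1; open, replicate 2; dash, mean), with groups along the axis and a line between the L*er* and Col-0 backgrounds. In S6 the paralogs meet near 50.3% and 49.7% in Col-0 and stand apart in *arp5-1* and in all L*er* background groups.

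Between the wild types in air, *RPS6* held 62.3% of S6 TPM in L*er* and 50.3% in Col-0, and AT3G09630 held 46.7% of L4 TPM in L*er* and 54.1% in Col-0. All reads were mapped to the Col-0 genome and the backgrounds form separate tables, so accession, mapping and batch cannot be told apart. Reads could also be divided wrongly between near-identical copies. Of the 47 genes, 28 share no 50-base stretch of transcript with another gene and 44 share less than 10%. The exceptions are *PGY2* (AT1G33140, 54.2%) and AT1G33120 (53.4%), which share with each other, and AT4G36130 (21.4%), which shares mainly with its neighbor, so the split of L9 between the first pair is uncertain.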

How the data were processed

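Single-read RNA-seq of 28 libraries was analysed. The authors aligned reads to TAIR10 with STAR 2.6.0c, quantified genes with RSEM 1.3.0 and deposited TPM for 33602 genes, which sum to 1000000 in each library, so read depth is not known and counting errors are not given. A further 4 columns of the Col-0 table repeat L*er* background libraries and were not used. Identifiers of 32835 genes matched TAIR10.1 (RefSeq), which gave symbols and promoters.

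Libraries of each table were rescaled by median-of-ratios factors (geometric mean 1). The tests took genes that reached 1 rescaled TPM in 2 or more libraries, which left 20546 in the L*er* table and 20156 in the Col-0 table. Group means of log2(rescaled TPM + 1) were compared with limma 3.58.1 (R 4.3.3), with a variance trend. Each background was fitted as 1 model, in which all groups share the estimate of a gene's spread. Leaving out a library of 1 group can therefore change the calls in comparisons of other groups. P-values were adjusted by the Benjamini-Hochberg method over every gene tested, and a call is an adjusted p below 0.05. Fold changes are on this scale, which understates those of low genes. Of 18 comparisons, 2 (*arp5-1* against *een-2* and *ino80-8*) were added after the data were seen. Python 3.11.15 with matplotlib 3.10.9 made the figures.

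The members, the gene lists, the tests and the naming rule were chosen with earlier results of these data known. Families follow textbook names. Values in every library are given for up to 6 members called in each direction in a comparison, for the paralog whose share differs most in the 8 families with the widest differences among those with at least 2 members, and for the highest and lowest 3 members. Other members named with values, such as the lowest of a comparison, were chosen after their values were seen. Alternatives were other scalings, filters and pseudocounts, only the groups compared, a replicate block, each library left out, and paralog shares over the members only. On simulated data with 200 changed genes, the L*er* ET comparison recovered 16, 42, 49 and 50 of 50 genes at log2 changes of 0.5, 1, 1.5 and 2 and called 11 unchanged genes of 20086. The *arp5-1* comparison recovered 2, 24, 43 and 44 and called 5 of 19972. In the data, 8.83% of all genes were called higher after ET in L*er*, and 51.2% in either direction in *arp5-1*. Recovery with such shares of changed genes was not tested.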

Additional observations from a re-analysis of the deposited data

How the results depend on the processing

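The *arp5-1* result held under every alternative run, with 46 members higher against Col-0 (46 to 47 over the libraries left out). Against *een-2* the range was 43 to 46 and against *ino80-8* 45 to 47. The other counts of called members were small and moved. With TPM as deposited they were 35 (ET in L*er*), 0 (ET in *ein6-1*), 39 (*een-1* in air), 35 (*ein6-1 een-1* in air), 0 (*ein6-1* in air), 2 (*ein2-45* in air), 8 (ET response of *ein6-1 een-1* against L*er*, all lower) and 7 (*een-2*). With TPM renormalized without rRNA, tRNA, snoRNA and organelle genes they were 19, 3 and 12 (ET in L*er*, *ein6-1* and *een-1*), 21 and 22 (*een-1* and *ein6-1 een-1* in air), 4 (that ET response) and 10 (*een-2*). These 2 scalings construct other totals per library, and move the median of all genes after ET in L*er* to 0.25 and 0.14. With only the groups compared in the fit they were 0 (ET in *ein6-1*), 12 (ET in *een-1*), 0, 24, 13 and 17 (*ein6-1*, *ein2-45*, *een-1* and the double mutant in air, the last with 16 higher and 1 lower), 3 (that ET response) and 0 (*een-2*). With no minimum they were 0 and 3 (ET in *ein6-1* and *een-1*), 2 (*een-1* in air) and 1 (*een-2*), and with at least 5 TPM 2 (ET in *ein6-1*) and 2 (*ein6-1* in air). Except for what the scalings and fewer samples construct, the cause was not tested.

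Over the libraries left out, the counts ran from 0 to 6 (ET in L*er*), 0 to 29 (ET in *ein6-1*), 1 to 13 (ET in *een-1*), 0 to 8 (*ein6-1* in air), 0 to 6 (*een-1* in air), 2 to 11 (*ein6-1 een-1* in air), 1 to 21 (*ein2-45* in air), 0 to 3 (ET response of *ein6-1 een-1*) and 0 to 18 (*een-2*). Under the settings that left out no library, 114 counts of calls stayed within 1.5 times the main count and 30 did not. No log2 fold change of a named member changed sign. Of these, 25 of 376 values lost their call under the settings that left out no library. With a library left out, a larger share of these calls was lost. In the L*er* background they were lost most often when a L*er* air library was dropped. Counting the members only could not move a share, because every locus of the 8 families is a member. Where 1 library was left in a group, it was assumed to vary like the other groups.

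Replicate numbers showed no clear pairing of the samples, which does not exclude one. Same-numbered libraries of 2 groups deviated together with a correlation above 0.1 in 11 of 45 pairs of groups in the L*er* table and 1 of 6 in the Col-0 table. With the replicate number as a block the counts were 4 (ET in L*er*), 7 (ET in *een-1*), 2 (*ein6-1* in air), 4 (*een-1* in air), 8 (*ein6-1 een-1* in air), 12 (*ein2-45* in air), 2 (*een-2*) and 46 (*arp5-1*).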
